A study of Mus musculus with 5 samples.

Results

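The genes described here are those of the constitutive proteasome, its activators, its inhibitor and its assembly chaperones, in cells washed from the mouse peritoneal cavity. They were taken by name, as the rows of the expression table whose symbol began with Psm, then a letter from a to g and a digit, and that reached at least 1 FPKM in at least 1 of 5 libraries. Psmb8, Psmb9 and Psmb10, the catalytic subunits of the immunoproteasome, were left out by that rule. Of 47 rows with such a name, 45 reached the level, out of 22815 genes in the table. Of these, 44 were at 1 FPKM or more in every library, and Psme2b reached it in 4 of the 5. Just inside the limit stood Psme2b and Psmc3ip, with highest values of 2.78 and 2.91 FPKM. Outside it stood Psma8, a testis form of an alpha subunit, with a highest value of 0.574 FPKM, and Psmb11, a thymus form of a catalytic subunit, with 0.0530 FPKM. FPKM counts fragments per length of transcript and per depth of library. Levels of different genes are set side by side on this scale, which corrects for length and depth only, so such comparisons are rough.

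RNA was sequenced from peritoneal lavage cells of 8-week-old mice by Smart-seq2, a method for small amounts of RNA that does not mark the strand. The groups were Irf8KO mice given pristane (2 libraries), wild-type (WT) C57BL/6 mice given pristane (2 libraries) and WT mice given PBS, a salt solution (1 library). Pristane is a hydrocarbon oil that causes lasting sterile inflammation of the peritoneum, and Irf8 is a transcription factor that steers the development of monocytes and dendritic cells. The labels do not describe the Irf8 allele, nor the time between injection and lavage, nor whether the replicates came from separate animals. P-values therefore reflect just the variation among these libraries.

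The proteasome is the large protease that breaks down proteins tagged with ubiquitin. Its barrel, the 20S core particle, is built of outer alpha rings and inner beta rings, and Psmb5, Psmb6 and Psmb7 carry the active sites. The 19S regulatory particle caps the barrel: a ring of ATPases (Psmc genes) unfolds the substrate, non-ATPase subunits (Psmd genes) receive ubiquitin, and the lid subunit Psmd14 cuts it off. Other caps bind the barrel without ubiquitin, namely the Psme1 and Psme2 ring (PA28 alpha and beta), the nuclear Psme3 ring (PA28 gamma) and Psme4 (PA200). In cells exposed to interferon gamma, newly built barrels take up Psmb8, Psmb9 and Psmb10 in place of Psmb5, Psmb6 and Psmb7, and this immunoproteasome favours cuts that suit antigen presentation. Psmc3ip shares only the name: it is a cofactor of meiotic recombination that was named for binding Psmc3.

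The promoters of 4 members are printed because the results turn on these genes: Psmb5, Psmd2 and Psmd8 passed the test in a comparison, and Psme1 had the lowest log2 difference of all members between the Irf8KO-labelled libraries and WT pristane. Each window runs 5′ to 3′ on the gene's strand, from 250 bases before to 50 bases after the start site, and was taken from RefSeq (GRCm38.p6). The windows are chr14:54617946-54618245 on the minus strand for Psmb5, chr16:20651402-20651701 on the plus strand for Psmd2, chr7:29180624-29180923 on the minus strand for Psmd8 and chr14:55578244-55578543 on the plus strand for Psme1. Capitals mark a match to TGACNNNGC, the core of the antioxidant response element, or to GAAANNGAAA, a motif of the kind bound by interferon regulatory factors.
Psmb5: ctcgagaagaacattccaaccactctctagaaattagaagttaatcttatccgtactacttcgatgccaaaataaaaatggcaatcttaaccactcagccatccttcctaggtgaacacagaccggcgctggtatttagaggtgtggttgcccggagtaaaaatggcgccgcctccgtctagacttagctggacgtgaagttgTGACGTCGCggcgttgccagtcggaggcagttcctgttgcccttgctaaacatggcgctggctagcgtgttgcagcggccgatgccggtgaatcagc
Psmd2: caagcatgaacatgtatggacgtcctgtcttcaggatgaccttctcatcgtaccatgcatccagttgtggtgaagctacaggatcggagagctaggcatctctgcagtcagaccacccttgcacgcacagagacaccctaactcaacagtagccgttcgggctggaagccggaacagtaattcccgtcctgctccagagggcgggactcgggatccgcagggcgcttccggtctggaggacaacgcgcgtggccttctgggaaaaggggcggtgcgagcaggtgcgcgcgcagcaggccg
Psmd8: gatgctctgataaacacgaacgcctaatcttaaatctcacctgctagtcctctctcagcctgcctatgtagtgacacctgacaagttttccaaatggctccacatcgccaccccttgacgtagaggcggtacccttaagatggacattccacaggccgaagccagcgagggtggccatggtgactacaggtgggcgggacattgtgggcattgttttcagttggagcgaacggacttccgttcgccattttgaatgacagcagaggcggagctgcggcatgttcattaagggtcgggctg
Psme1: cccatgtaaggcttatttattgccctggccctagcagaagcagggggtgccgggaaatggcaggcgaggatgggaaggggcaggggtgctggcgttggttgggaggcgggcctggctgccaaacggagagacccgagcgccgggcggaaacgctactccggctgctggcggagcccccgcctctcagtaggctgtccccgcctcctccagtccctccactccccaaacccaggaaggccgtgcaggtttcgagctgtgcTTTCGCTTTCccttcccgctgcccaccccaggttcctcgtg

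In the Psmb5 window the match began 47 bases before the start site, at position -47. In the Psme1 window the match began at position 10 after the start site, on the opposite strand. The windows of Psmd2 and Psmd8 held none of the 3 motifs searched, the third being CCAAT, a common promoter box. Of the 45 members, 38 had a window, and each motif was searched on both strands. TGACNNNGC stood in 6 of the 38, or 15.8% (Psmb5, Psmb6, Psmc6, Psmd9, Psmd12 and Psme4), beside 14% of the 27025 genes with a window of that length. GAAANNGAAA stood in 5, or 13.2% (Psmb3, Psmd4, Psmd9, Psme1 and Psmg4), beside 3.99% of those genes, a difference that was not tested. The windows of Psmb8 and Psmb9, which are no members, did not hold it. CCAAT stood in 13, or 34.2%, beside 41.1%. Matches of different motifs overlapped in 1 of the members' windows. Psmb1, Psmb2, Psmb7, Psmc3, Psmd3, Psmd7 and Psmg2 had no window in the table used.

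The libraries differed from each other in ways that bear on every result. Irf8 RNA was not lower in the Irf8KO-labelled libraries: it stood at 121 and 59.4 FPKM there, at 63.3 and 48.7 FPKM in WT pristane and at 32.4 FPKM in PBS. Since the allele is not described, the level of this RNA does not settle the genotype. The text therefore speaks of Irf8KO-labelled libraries. The Y-linked gene Eif2s3y was at 23.2 and 25.6 FPKM in the Irf8KO-labelled libraries, at 12.9 and 0 FPKM in WT pristane and at 0 in PBS. The female transcript Xist was at 0.0148 and 0.0145 FPKM, at 0 and 8.81 FPKM and at 43.5 FPKM in the same order of groups. The 2 WT pristane libraries thus differed in transcripts of sex, and so did the Irf8KO-labelled libraries and PBS. Between the Irf8KO-labelled libraries and PBS, sex cannot be told apart from genotype and treatment. In the other comparisons sex is partly mixed with the groups, since Eif2s3y was present in WT pristane 1 and at 0 in WT pristane 2. The part of sex in the results on the proteasome was not tested. Summed markers of mature neutrophils (10 of 10 listed genes tested) were 25104 to 48648 FPKM in the Irf8KO-labelled libraries, 15721 to 17532 FPKM in WT pristane and 298 FPKM in PBS, where Il1r2 was listed at 0. Of these sums, S100a8 alone made up 29441 and 16300 FPKM in the Irf8KO-labelled libraries and 10376 and 9877 FPKM in WT pristane. Of the 10 neutrophil markers, 5 lay higher without overlap in the Irf8KO-labelled libraries than in WT pristane, beside 26.1% of all genes. Il1r2 lay lower there, and the others overlapped. Markers of large peritoneal macrophages (9 of 10) summed to 1561 to 2645 FPKM in the Irf8KO-labelled libraries, 140.4 to 221 FPKM in WT pristane and 2306 FPKM in PBS. Of these 9, 8 lay higher without overlap in the Irf8KO-labelled libraries than in WT pristane, beside 26.1% of all genes. Timd4 lay lower, at 0.0957 and 0.552 FPKM, against 0.676 and 0.838 FPKM in WT pristane and 26.9 FPKM in PBS. B cell markers (8 of 8) summed to 122 to 237 FPKM, 18.0 to 56.3 FPKM and 3250.2 FPKM in the same order of groups. Markers of inflammatory monocytes (7 of 8) summed to 161 to 300.3 FPKM, 1073 to 5925 FPKM and 781 FPKM, of which Chil3 alone made up 3999.8 FPKM in WT pristane 2 and Plac8 706 FPKM in PBS. Those of natural killer cells (5 of 5) summed to 24.4 to 35.4 FPKM, 64.9 to 86.1 FPKM and 11.6 FPKM in the same order. T cell markers (5 of 5) summed to 40.8 to 52.9 FPKM, 76.4 to 115 FPKM and 359 FPKM in that order. Cd2 alone made up 247 FPKM of the T cell sum in PBS. Of the 5 T cell markers, 3 lay below PBS in both WT pristane libraries, beside 44.5% of all genes. Mast cell markers (5 of 5) summed to at most 4.38 FPKM in any pristane library and to 315 FPKM in PBS. The mast cell protease Mcpt4 was listed at 0 in all pristane libraries. Genes of dividing cells (6 of 6) summed to 61.0 to 72.3 FPKM in the Irf8KO-labelled libraries, 9.80 to 10.3 FPKM in WT pristane and 11.2 FPKM in PBS. The part of these cell types in the results on the proteasome was not tested. In such mixtures, fewer cells of a type and less RNA per cell cannot be told apart.

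Proteasome RNA took a larger share of the RNA in WT pristane than in PBS, with the Irf8KO-labelled libraries in between. The 45 members summed to 3638 and 3286 FPKM in the Irf8KO-labelled libraries, to 3880.2 and 4333 FPKM in WT pristane and to 2527 FPKM in PBS. As a percent of the summed FPKM of all genes this was 0.624% and 0.634% in the Irf8KO-labelled libraries, 0.801% and 0.959% in WT pristane and 0.538% in PBS. The groups did not overlap in either measure. The member in the middle of the 45 stood at 56.2 and 46.4 FPKM in the Irf8KO-labelled libraries, at 61.1 and 68.5 FPKM in WT pristane and at 42.2 FPKM in PBS.

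**Figure D1:**
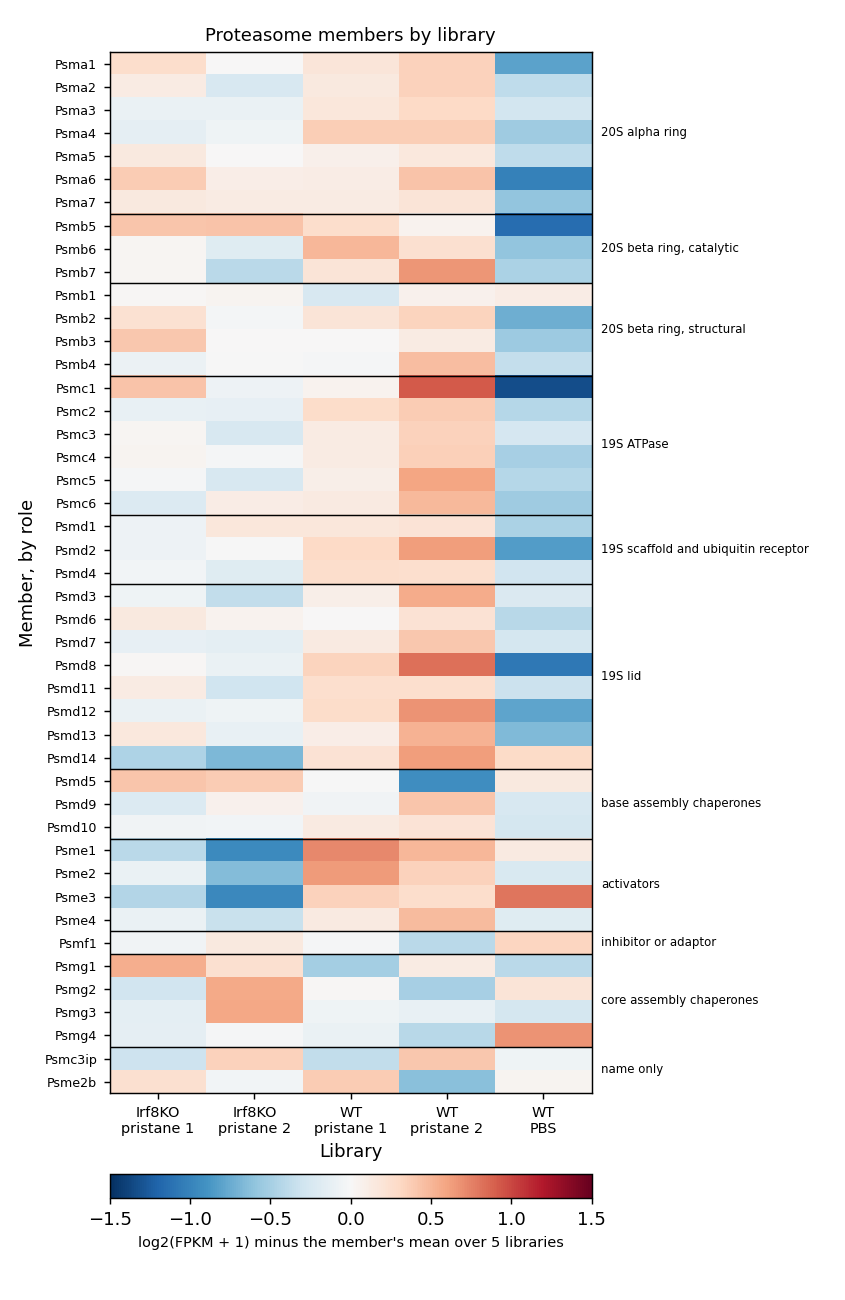
Level of each of the 45 members in each library, as log2(FPKM + 1) minus that member's mean over the 5 libraries, with members ordered by role and blue below and red above the mean. The WT PBS column is blue for most core and regulatory particle subunits and red for Psme3 and Psmg4, and WT pristane 2 is the reddest column over the regulatory particle.

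The levels followed the parts of the machine. As a class, core particle subunits had more RNA per length than the regulatory particle: over the 5 libraries, the alpha ring genes averaged 219.8 (Psma2), 218 (Psma6), 200.3 (Psma7), 152 (Psma3), 146 (Psma1), 111 (Psma5) and 92.9 FPKM (Psma4). The beta ring genes without an active site averaged 205 (Psmb1), 191 (Psmb3), 147 (Psmb4) and 126 FPKM (Psmb2), and the catalytic ones 191 (Psmb5), 160.2 (Psmb6) and 64.8 FPKM (Psmb7). A finished barrel holds its subunits in equal number, while the RNA of its 14 subunits spanned 44.3 to 221 FPKM in PBS and 98.6 to 277 FPKM in WT pristane 2.

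The regulatory particle stood lower. Its ATPases averaged 81.8 (Psmc4), 58.9 (Psmc5), 55.9 (Psmc3), 45.9 (Psmc2), 44.5 (Psmc6) and 27.6 FPKM (Psmc1). The ubiquitin receptor Psmd4 averaged 70.5 FPKM, and the large scaffold subunits Psmd2 and Psmd1 averaged 46.5 and 23.4 FPKM. Lid subunits averaged 159.8 (Psmd8), 64.9 (Psmd14), 62.2 (Psmd13), 56.9 (Psmd6), 56.2 (Psmd11), 37.4 (Psmd7), 34.5 (Psmd12) and 29.6 FPKM (Psmd3). The median of the 17 regulatory particle genes was below that of the 14 core genes in each library. It was 44.1 and 44.6 against 164 and 143 FPKM in the Irf8KO-labelled libraries, 56.6 and 65.9 against 171 and 185 FPKM in WT pristane, and 37.4 against 102 FPKM in PBS.

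Regulators and chaperones spanned the widest range. Psme1 averaged 149.8 FPKM and its partner Psme2 42.6 FPKM, while the nuclear activators Psme3 and Psme4 averaged 4.95 and 2.58 FPKM. Psmf1 (PI31), which inhibits the core particle in vitro and also acts as a transport adaptor, averaged 6.39 FPKM. The chaperones that pair up to build the alpha ring averaged 43.2 (Psmg4), 20.9 (Psmg1), 13.5 (Psmg2) and 11.6 FPKM (Psmg3). Those that guide the ATPase ring averaged 30.8 (Psmd10, also called gankyrin), 12.3 (Psmd5) and 8.25 FPKM (Psmd9). Psmc3ip and Psme2b were lowest, at 2.04 and 1.98 FPKM. Psme2b is a near copy of Psme2, with 99.4% identity over 794 aligned bases of their GENCODE transcripts, so fragments of these 2 genes may have been exchanged. Psmc3ip exons overlap Mlx on the opposite strand, which reached 35.6 FPKM. Depth limits the lowest genes, since for 1 kb of transcript a lone fragment came to 0.195 to 0.433 FPKM, as estimated from the table.

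In WT pristane, the RNA of most proteasome subunits took a larger share than in PBS. RNA per cell was not measured. Psmb5, the subunit with the chymotrypsin-like active site, Psmd2, the scaffold that docks ubiquitin receptors, and the lid subunit Psmd8 rose past the threshold of an adjusted p under 0.05. Of the 45 members, 3 rose (6.67%), beside 5.18% of the 11117 genes tested, and 0 fell, beside 5.46%. The share that rose was thus close to that of all genes. At an unadjusted p under 0.05, 17 members were higher (37.8%), beside 15.9% of all genes, and Psmg4 alone was lower (2.22%), beside 17.8%. Both WT pristane libraries lay above PBS for 35 members (77.8%), beside 37.3% of all genes, and below it for 6 (13.3%), beside 44.5%. The median log2 difference over the members was 0.58, and -0.07 over all genes tested. Under quantile normalization these medians were 0.23 and -0.06. At an unadjusted p under 0.05, 8 members were then higher and 2 lower, beside 3684 of the 11117 genes in either direction. With libraries rescaled to the same sum, 17 members were higher and 1 lower. All differences are of log2(FPKM + 1) and understate those of the lowest genes.

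Psmb5 stood at 214 and 184 FPKM in WT pristane, against 80.0 FPKM in PBS. Its log2 change was 1.30 ± 0.20 (SE; limma, adjusted p = 0.0400; n = 2 and 1). Psmd8 stood at 185 and 259.9 FPKM in WT pristane, against 69.5 FPKM in PBS, a log2 change of 1.64 ± 0.28 (SE; limma, adjusted p = 0.0456). Both genes were more than 2-fold higher in each WT pristane library than in PBS. Psmd2 stood at 54.2 and 68.5 FPKM in WT pristane, against 24.2 FPKM in PBS, a log2 change of 1.30 ± 0.23 (SE; limma, adjusted p = 0.0471). The spread behind these tests came from the pristane pairs alone, since PBS had 1 library. Without any 1 pristane library none of the 3 passed (limma, adjusted p = 0.0736 to 0.164), and 0 of all genes tested did. Under quantile normalization none of the 3 passed either, and over the 12 alternatives Psmb5 passed in 6 and Psmd2 and Psmd8 in 2 each.

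The other core subunits were mostly above PBS without passing. Psma4, the alpha subunit with the smallest p, was at 117 and 117 FPKM in WT pristane, against 62.0 FPKM in PBS, a log2 difference of 0.90 ± 0.17 (SE; limma, adjusted p = 0.0534). Psma2, the alpha subunit with the highest level, was at 239 and 275 FPKM in WT pristane, against 165 FPKM in PBS (log2 difference 0.63 ± 0.25; limma, adjusted p = 0.176). All 7 alpha subunits lay above PBS in both WT pristane libraries, beside 37.3% of all genes. Their log2 differences were 0.49 to 1.28 (that of Psma3 turned below 0 under quantile normalization). Psmb2, a beta subunit without an active site, was at 140.2 and 154 FPKM in WT pristane, against 73.1 FPKM in PBS (log2 difference 1.00 ± 0.21; limma, adjusted p = 0.0641). Psmb1, in the same ring, was at 174 and 213 FPKM in WT pristane, against 221 FPKM in PBS, and was the core subunit below PBS in both libraries (log2 difference -0.20 ± 0.22; limma, adjusted p = 0.559). The remaining beta subunits Psmb3 and Psmb4 had log2 differences of 0.61 and 0.58.

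**Figure D2:**
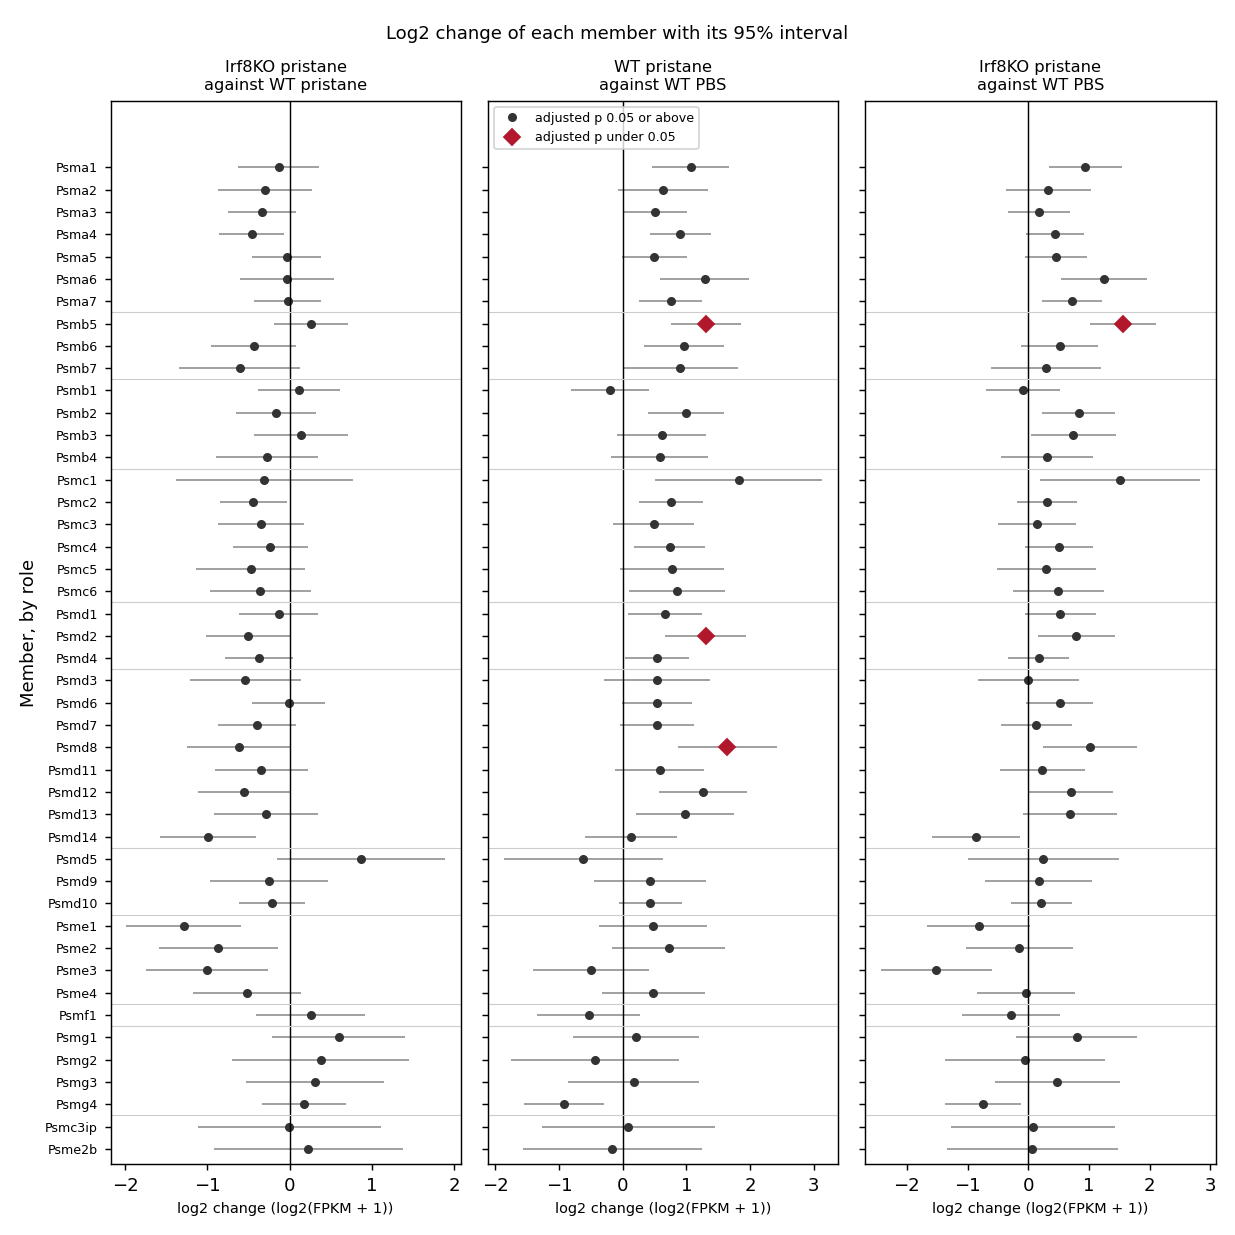
Log2 difference of each member in the 3 comparisons, with its 95% interval, in order of role; red diamonds mark an adjusted p under 0.05 in limma. In WT pristane against WT PBS 38 of 45 points lie right of 0, in the Irf8KO-labelled libraries against WT pristane 10 do, and in the Irf8KO-labelled libraries against WT PBS 36 do, on the deposited scale.

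All 17 regulatory particle genes had a log2 difference above 0 between WT pristane and PBS, beside 46.9% of all genes. The median of the 17 was 0.74 (under quantile normalization, and without WT pristane 2, Psmd14 turned below 0). Psmc2, the ATPase with the smallest p, was at 54.5 and 59.0 FPKM in WT pristane, against 33.1 FPKM in PBS (log2 difference 0.76 ± 0.18; limma, adjusted p = 0.0747). Psmc4, the most abundant ATPase, was at 87.3 and 103 FPKM in WT pristane, against 56.6 FPKM in PBS (0.74 ± 0.20; limma, adjusted p = 0.0938). Psmc1 had the widest difference of all members, with 25.3 and 47.2 FPKM in WT pristane against 9.09 FPKM in PBS, but its 2 WT pristane libraries also stood far apart (1.82 ± 0.47; limma, adjusted p = 0.0869). The ubiquitin receptor Psmd4 was at 83.8 and 83.1 FPKM in WT pristane, against 57.0 FPKM in PBS (0.54 ± 0.18; limma, adjusted p = 0.130). Psmd14, the deubiquitinase, was at 71.7 and 95.2 FPKM in WT pristane, on both sides of the 75.3 FPKM in PBS. The remaining lid subunits had log2 differences of 0.53 (Psmd6, Psmd7), 0.54 (Psmd3), 0.58 (Psmd11), 0.98 (Psmd13) and 1.26 (Psmd12).

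Chaperones and the remaining regulators had values on both sides of PBS. Psmg4, a chaperone of the alpha ring, was at 39.0 and 31.2 FPKM in WT pristane, against 67.1 FPKM in PBS (log2 difference -0.92 ± 0.22; limma, adjusted p = 0.0785). Under quantile normalization it fell past the threshold (-1.37; limma, adjusted p = 0.0433, range over the 12 alternatives 0.0433 to 0.204). Psmg2 was below PBS in both WT pristane libraries, with a log2 difference of -0.43, while Psmg1 and Psmg3 were at 0.20 and 0.17. Psmd10 was at 33.7 and 35.4 FPKM in WT pristane, against 25.4 FPKM in PBS (0.43 ± 0.18; limma, adjusted p = 0.185), and Psmd9 had a difference of 0.42. Psmd5, the remaining ATPase-ring chaperone, was below PBS in both WT pristane libraries (-0.62 ± 0.45; limma, adjusted p = 0.385). Psmf1 was at 6.20 and 4.51 FPKM in WT pristane, against 8.14 FPKM in PBS (-0.54 ± 0.29; limma, adjusted p = 0.274). Psmc3ip, at 1.31 and 2.91 FPKM in WT pristane and 1.84 FPKM in PBS, and Psme2b, at 2.78 and 0.871 FPKM in WT pristane and 1.98 FPKM in PBS, had values on both sides of PBS.

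Between the Irf8KO-labelled libraries and WT pristane no member passed the threshold, and most members stood lower in the Irf8KO-labelled libraries. With limma, 0 members were past an adjusted p of 0.05 in either direction, beside 0% of all genes higher and 0.027% lower. At an unadjusted p under 0.05, 0 members were higher (10.5% of all genes) and 6 were lower, or 13.3% (10.1% of all genes). These were Psma4, Psmc2, Psmd14, Psme1, Psme2 and Psme3, and on the deposited scale this share was near the background. With libraries rescaled to the same sum, 18 members were lower and 0 higher, beside 2419 of the 11117 genes in either direction. Under quantile normalization 9 were lower and 0 higher, beside 2314 genes. Both Irf8KO-labelled libraries lay below both of WT pristane for 23 members (51.1%), beside 27.1% of all genes, and above both for 3 (6.67%), beside 26.1%. The median log2 difference over the members was -0.29, against -0.00 over all genes. It was -0.18 without WT pristane 2, the library with the highest proteasome share, and -0.39 without WT pristane 1. Rescaling each library to the same summed FPKM moved the median of all genes to -0.20 and that of the members to -0.52.

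As a role, the activators had the lowest median log2 difference in this comparison, -0.94. All 4 lay lower in both Irf8KO-labelled libraries than in both of WT pristane, beside 27.1% of all genes. Psme1 (PA28 alpha) was at 104 and 70.9 FPKM in the Irf8KO-labelled libraries, against 227 and 196 FPKM in WT pristane and 152 FPKM in PBS. Its log2 difference from WT pristane was -1.29 ± 0.25 (SE, 95% interval -1.98 to -0.59; limma, adjusted p = 0.129). Psme2 (PA28 beta), which forms a ring with Psme1, was at 37.7 and 25.6 FPKM in the Irf8KO-labelled libraries, against 63.7 and 51.8 FPKM in WT pristane and 34.5 FPKM in PBS (-0.87 ± 0.26; limma, adjusted p = 0.197). For Psme1 the Irf8KO-labelled libraries also lay below PBS, and for Psme2 they lay on both sides of it. Some Psme1 exons overlap Emc9 on the opposite strand, a gene with at most 12.4 FPKM in these libraries.

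The nuclear activators were scarce. Psme3 (PA28 gamma) was at 3.01 and 1.78 FPKM in the Irf8KO-labelled libraries, against 5.90 and 5.53 FPKM in WT pristane and 8.53 FPKM in PBS. Its groups did not overlap, and its log2 difference was -1.01 ± 0.27 from WT pristane (limma, adjusted p = 0.174) and -1.51 ± 0.33 from PBS (limma, adjusted p = 0.0685). Between WT pristane and PBS it was -0.51 ± 0.33 (limma, adjusted p = 0.341). Psme4 (PA200), which is linked to the breakdown of acetylated histones, was at 2.28 and 1.79 FPKM in the Irf8KO-labelled libraries, against 2.85 and 3.88 FPKM in WT pristane and 2.10 FPKM in PBS (-0.52 ± 0.24 from WT pristane; limma, adjusted p = 0.320).

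**Figure D3:**
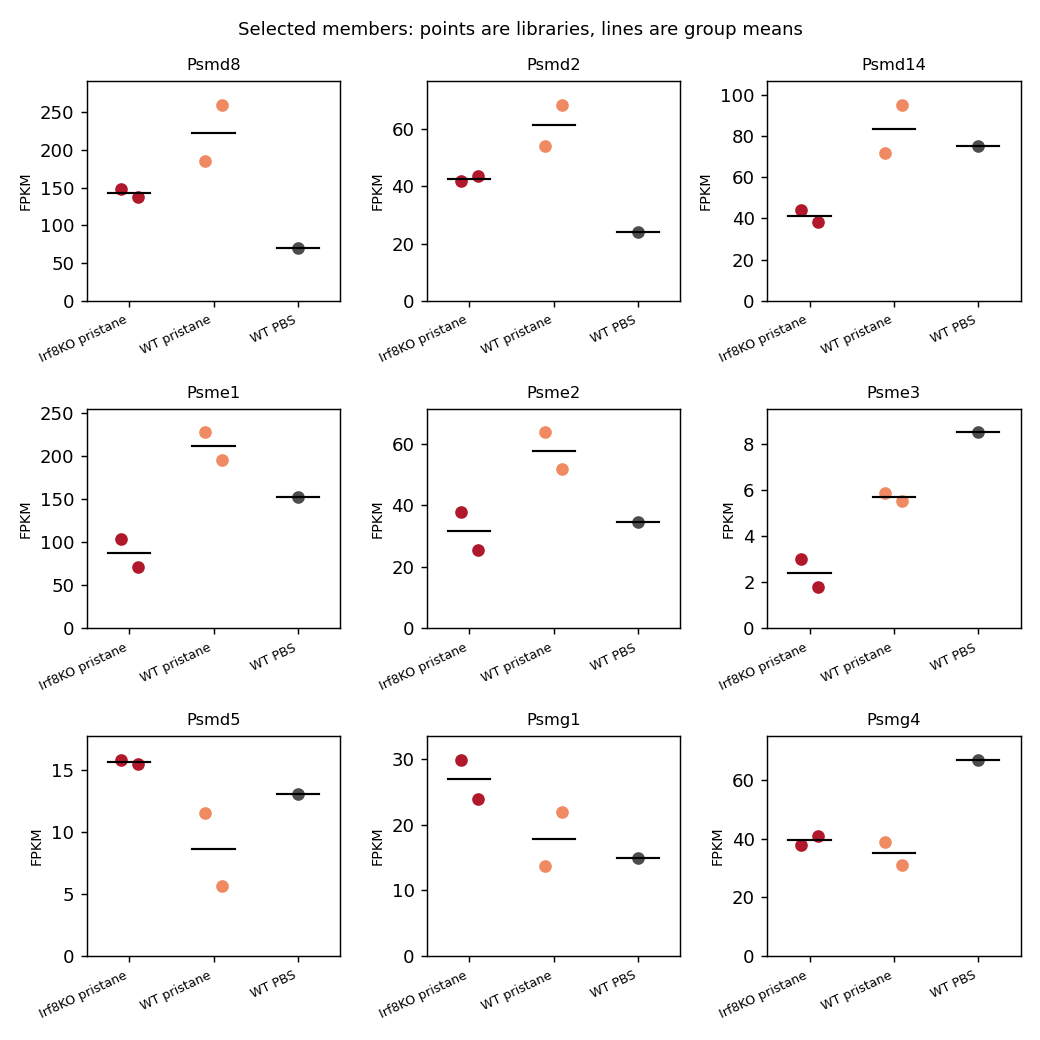
FPKM of 9 members in each library, with a line at the mean of each group or at the single WT PBS value. Psmd8 and Psmd2 are highest in WT pristane and lowest in PBS; Psmd14, Psme1, Psme2 and Psme3 are lower in the Irf8KO-labelled libraries than in WT pristane; Psmd5 and Psmg1 are higher there, and Psmg4 is highest in PBS.

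In the regulatory particle, all 17 genes had a log2 difference below 0 between the Irf8KO-labelled libraries and WT pristane, while 49.1% of all genes were above 0. The median of the 17 was -0.37, and 13 of them lay lower without overlap, beside 27.1% of all genes. Without WT pristane 2 the difference was 0.13 for Psmc1 and 0.09 for Psmd6, and that of Psmd6 was 0.03 without the second Irf8KO-labelled library. Psmd14 was the lowest, at 44.1 and 38.2 FPKM in the Irf8KO-labelled libraries, against 71.7 and 95.2 FPKM in WT pristane and 75.3 FPKM in PBS (-0.99 ± 0.21 from WT pristane; limma, adjusted p = 0.139). It was the regulatory particle gene whose level in the Irf8KO-labelled libraries was also below PBS in both. Psmd8 was at 148 and 137 FPKM in the Irf8KO-labelled libraries, against 185 and 259.9 FPKM in WT pristane (-0.62 ± 0.23; limma, adjusted p = 0.249). Psmd2 was at 41.7 and 43.7 FPKM in the Irf8KO-labelled libraries, against 54.2 and 68.5 FPKM in WT pristane (-0.50 ± 0.18; limma, adjusted p = 0.248). Psmd8 and Psmd2 thus stood between WT pristane and PBS. Psmc2 was at 41.5 and 41.3 FPKM in the Irf8KO-labelled libraries, against 54.5 and 59.0 FPKM in WT pristane (-0.44 ± 0.15; limma, adjusted p = 0.217). Psmc4 was at 82.4 and 79.0 FPKM in the Irf8KO-labelled libraries and at 87.3 and 103 FPKM in WT pristane (-0.23 ± 0.16; limma, adjusted p = 0.490). Psmd4 was at 67.5 and 61.2 FPKM in the Irf8KO-labelled libraries and at 83.8 and 83.1 FPKM in WT pristane (-0.37 ± 0.15; limma, adjusted p = 0.269).

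The core particle was closer to level between these groups. Its 14 genes had a median log2 difference of -0.15, and 3 were above 0, beside 49.1% of all genes. These were Psmb5, Psmb1 and Psmb3. Psmb1 and Psmb3 turned below 0 when libraries were rescaled to the same sum and when 1 of the pristane libraries was left out. Of the 14, 5 lay lower without overlap, beside 27.1% of all genes. Psma4 was at 82.5 and 86.4 FPKM in the Irf8KO-labelled libraries, against 117 and 117 FPKM in WT pristane (-0.46 ± 0.14; limma, adjusted p = 0.200). Psma2 was at 236 and 183 FPKM in the Irf8KO-labelled libraries, against 239 and 275 FPKM in WT pristane (-0.30 ± 0.21; limma, adjusted p = 0.473). For Psma5, Psma6 and Psma7 the difference was -0.04, -0.03 and -0.02, with 95% intervals of -0.45 to 0.38, -0.61 to 0.54 and -0.43 to 0.38. Psmb4 was at 136 and 144 FPKM in the Irf8KO-labelled libraries and at 143 and 200.03 FPKM in WT pristane (-0.28 ± 0.22; limma, adjusted p = 0.533). Psmb1 was at 207 and 211 FPKM in the Irf8KO-labelled libraries and at 174 and 213 FPKM in WT pristane, with a difference of 0.12 ± 0.18 that turned below 0 under both other scalings tried (limma, adjusted p = 0.745). Psmb2 overlapped too, at 144 and 119 FPKM in the Irf8KO-labelled libraries and 140.2 and 154 FPKM in WT pristane. The difference in response between core and regulatory particle was not tested.

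The log2 differences of the 4 alpha-ring chaperones were 0.17 to 0.60 in this comparison, beside 49.1% of all genes above 0. That of Psmg4 turned below 0 when libraries were rescaled to the same sum, and those of Psmg2 and Psmg3 were both -0.05 without the second Irf8KO-labelled library. Psmg1 was the member of the 4 whose groups did not overlap. Psmg1 was at 29.9 and 24.0 FPKM in the Irf8KO-labelled libraries, against 13.8 and 21.9 FPKM in WT pristane and 15.0 FPKM in PBS (0.60 ± 0.29; limma, adjusted p = 0.341). Psmg4 was at 37.9 and 41.1 FPKM in the Irf8KO-labelled libraries and at 39.0 and 31.2 FPKM in WT pristane (0.17 ± 0.18; limma, adjusted p = 0.632). Psmd5, which guides the ATPase ring and holds unfinished particles back, was at 15.8 and 15.5 FPKM in the Irf8KO-labelled libraries, against 11.5 and 5.60 FPKM in WT pristane and 13.01 FPKM in PBS (0.87 ± 0.37; limma, adjusted p = 0.292). Psmd10 was at 29.6 and 29.8 FPKM in the Irf8KO-labelled libraries, against 33.7 and 35.4 FPKM in WT pristane (-0.21 ± 0.15; limma, adjusted p = 0.474). Psmf1 was at 6.04 and 7.06 FPKM in the Irf8KO-labelled libraries and at 6.20 and 4.51 FPKM in WT pristane (0.26 ± 0.24; limma, adjusted p = 0.584). Psmc3ip was at 1.39 and 2.76 FPKM and Psme2b at 2.44 and 1.83 FPKM in the Irf8KO-labelled libraries, within the range of their WT pristane values.

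**Figure D4:**
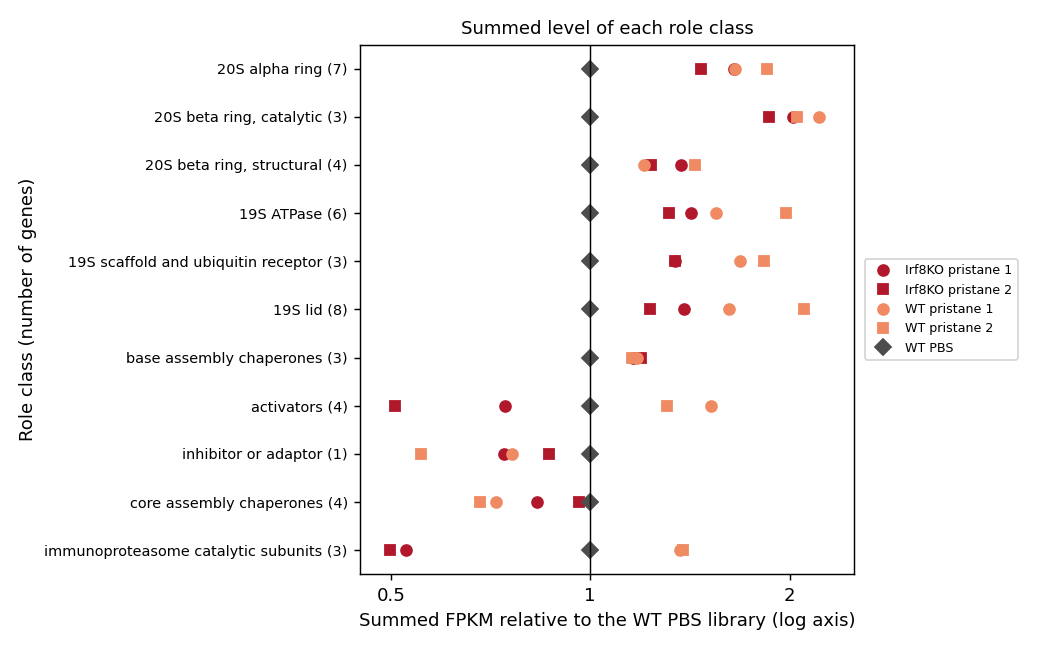
Summed FPKM of each role class in each library, divided by its sum in the WT PBS library, on a log axis; the number of genes is in brackets. The activators and the immunoproteasome subunits lie left of 1 in both Irf8KO-labelled libraries and right of 1 in both WT pristane libraries, while on the deposited scale every core and regulatory particle class lies right of 1 in all 4 pristane libraries. Psme1 makes up 152 of the 197 FPKM of the activator sum in WT PBS. Psme3 is lower in WT pristane than in PBS, and Psme2 and Psme4 lie on both sides of PBS in the Irf8KO-labelled libraries.

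Set against PBS, the Irf8KO-labelled libraries had more Psmb5 RNA, and Psmb5 was the member that passed the threshold. Of the 45 members, 1 rose (2.22%), beside 3.81% of all genes, and 0 fell, beside 4.72%. At an unadjusted p under 0.05, 10 were higher (22.2%), beside 15.6% of all genes, and 3 were lower (6.67%), beside 18.1%. The 3 lower ones were Psmd14, Psme3 and Psmg4. With libraries rescaled to the same sum, 4 were higher and 4 lower, beside 3635 of the 11117 genes in either direction. Under quantile normalization 2 were higher and 5 lower, beside 3597 genes. Both Irf8KO-labelled libraries lay above PBS for 33 members (73.3%), beside 40.7% of all genes, and below it for 6 (13.3%), beside 46%. The median log2 difference over the members was 0.30, and -0.05 over all genes. It was 0.08 when libraries were rescaled to the same sum, where the median of all genes was -0.26, and 0.01 under quantile normalization, where that of all genes was -0.04. The sign turned for 9 members under the rescaling and for 15 under quantile normalization, none of them past the threshold. The single PBS library is shared with the comparison of WT pristane and PBS, so the 2 comparisons are not independent.

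Psmb5 stood at 238 and 239 FPKM in the Irf8KO-labelled libraries, against 80.0 FPKM in PBS, a log2 change of 1.56 ± 0.20 (SE; limma, adjusted p = 0.0371). On the deposited scale Psmb5 was highest of the 3 groups here, above the 214 and 184 FPKM in WT pristane. It differed from WT pristane by 0.26 ± 0.16 (95% interval -0.18 to 0.71, limma, adjusted p = 0.429). With libraries rescaled to the same sum this difference was 0.03. Without any 1 pristane library Psmb5 did not pass against PBS (limma, adjusted p = 0.0675 to 0.188), and it passed in 6 of 12 alternatives. Psmd8 and Psmd2 had log2 differences from PBS of 1.03 ± 0.28 and 0.79 ± 0.23 in the Irf8KO-labelled libraries (limma, adjusted p = 0.0953 and 0.102). Psma6, an alpha subunit, was at 267 and 220.3 FPKM in the Irf8KO-labelled libraries, against 101.3 FPKM in PBS (1.25 ± 0.25; limma, adjusted p = 0.0615). Psme1 and Psmd14 lay below PBS, with log2 differences of -0.82 ± 0.31 and -0.86 ± 0.26 (limma, adjusted p = 0.159 and 0.113). Psmg4 lay below PBS as well (-0.75 ± 0.22; limma, adjusted p = 0.111).

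The balance between the immunoproteasome and the constitutive catalytic subunits differed between all 3 groups for the chymotrypsin-like site. The ratio of Psmb8 to Psmb5 was 0.476 and 0.426 in the Irf8KO-labelled libraries, 1.66 and 1.83 in WT pristane and 3.33 in PBS. On the FPKM scale, RNA of the constitutive subunit was thus the higher of the pair in the Irf8KO-labelled libraries, and that of the immunoproteasome subunit in WT pristane and PBS. The log2 ratio differed by -1.95 between the Irf8KO-labelled libraries and WT pristane, and by -0.94 between WT pristane and PBS. A ratio within a library does not depend on the scaling between libraries, unless the scaling is not linear. The ratios are given as a description, with no test.

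For the caspase-like site, Psmb6 was at 159 and 137 FPKM in the Irf8KO-labelled libraries, at 219 and 183 FPKM in WT pristane and at 103 FPKM in PBS. The ratio of Psmb9 to Psmb6 was 0.428 and 0.561 in the Irf8KO-labelled libraries, 0.664 and 0.758 in WT pristane and 1.13 in PBS, in the same order of groups as the Psmb8 ratio. Its log2 difference between the Irf8KO-labelled libraries and WT pristane was -0.53, and -0.34 without the first Irf8KO-labelled library. For the trypsin-like site, Psmb7 was at 63.5 and 46.8 FPKM in the Irf8KO-labelled libraries, at 70.8 and 98.6 FPKM in WT pristane and at 44.3 FPKM in PBS. The ratio of Psmb10 to Psmb7 was 0.769 and 0.826 in the Irf8KO-labelled libraries, 1.34 and 1.27 in WT pristane and 1.21 in PBS. Here WT pristane and PBS were close (log2 difference 0.12), and the Irf8KO-labelled libraries stood apart (-0.71 from WT pristane). Psmb7 shares exon sequence on the opposite strand with Nek6, which reached 25.6 FPKM.

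**Figure D5:**
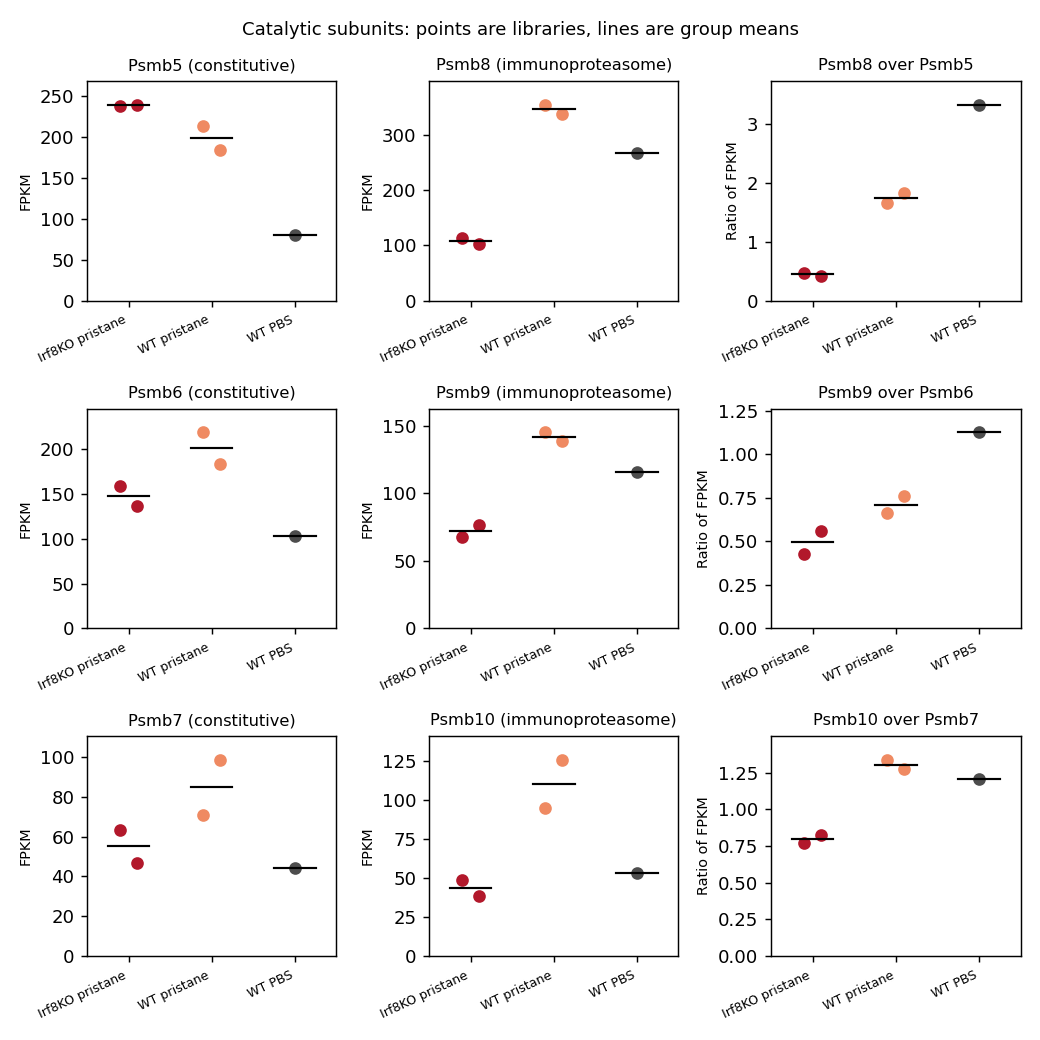
FPKM of the 3 constitutive catalytic subunits (left), of the immunoproteasome subunits that replace them (middle) and the ratio of immunoproteasome to constitutive subunit (right), by library, with a line at the mean of each group or at the single WT PBS value. Psmb8 over Psmb5 lies at 0.426 to 0.476 in the Irf8KO-labelled libraries, at 1.66 to 1.83 in WT pristane and at 3.33 in WT PBS.

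The immunoproteasome partner of Psmb5 was lowest in the Irf8KO-labelled libraries. Psmb8 was at 113 and 102 FPKM in the Irf8KO-labelled libraries, against 355 and 337 FPKM in WT pristane and 267 FPKM in PBS. It fell relative to PBS (log2 change -1.30 ± 0.19; limma, adjusted p = 0.0423), a call lost without any 1 pristane library, where 0 of all genes passed, and had a log2 difference of -1.68 ± 0.16 from WT pristane (limma, adjusted p = 0.0562). Psmb5 was at the same time highest in the Irf8KO-labelled libraries on the deposited scale. Its log2 difference from WT pristane was 0.03 with libraries rescaled to the same sum. Between WT pristane and PBS, by contrast, Psmb8 differed by 0.37 ± 0.19 (limma, adjusted p = 0.253), while Psmb5 rose by 1.30.

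Other genes of the pathway, which are no members, were described from a list of 28 names, of which 25 were tested. Between WT pristane and PBS 1 of the 25 rose and 0 fell, beside 5.18% and 5.46% of all genes, so the count was near the background. The log2 difference was above 0 for 18 of the 25, beside 46.9% of all genes, with a median of 0.25. The gene that rose was Txnl1, a thioredoxin-like protein bound to the regulatory particle, with 32.9 and 35.9 FPKM in WT pristane, against 15.8 FPKM in PBS (1.08 ± 0.19; limma, adjusted p = 0.0462), a call likewise lost without any 1 pristane library. Nfe2l2 (Nrf2), the factor that binds antioxidant response elements, was at 114 and 52.1 FPKM in WT pristane, against 15.7 FPKM in PBS (2.22 ± 0.52; limma, adjusted p = 0.0732). Nfe2l1, the factor known to raise proteasome genes when the protease is blocked, was at 23.9 and 10.1 FPKM in WT pristane, on both sides of the 14.3 FPKM in PBS. Pomp, which drives the joining of barrel precursors, was at 169.8 and 176 FPKM in WT pristane, against 107 FPKM in PBS (0.69 ± 0.26; limma, adjusted p = 0.156). In the Irf8KO-labelled libraries, 0 of the 25 passed against WT pristane (median -0.15) and 0 against PBS (median 0.19).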

How the data were processed

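Smart-seq2 libraries of peritoneal lavage RNA were compared, 5 in all. The authors deposited a table of FPKM values per gene symbol, and per the submitters' processing notes BWA, TopHat2 2.0.10, Cufflinks 2.2.1 and Cuffnorm were used. Genome build, annotation and scaling between libraries were not given in the sources used here. No read totals were used. Depth was estimated from the lowest values of genes with 1 transcript, and came to 3242000 and 5123000 assigned fragments in the Irf8KO-labelled libraries, 2872000 and 4118000 in WT pristane and 2308000 in PBS.

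The 11117 genes that reached 1 FPKM in any library were tested on log2(FPKM + 1) with limma 3.58.1 in R 4.3.3, with a mean-variance trend and 3 group means in 1 fit of all 5 libraries. Residual degrees of freedom were 2 and prior degrees of freedom 1.99. The single PBS library was assumed to vary like the pristane libraries. Tests were 2-sided, and p-values were Benjamini-Hochberg adjusted across every gene tested, with a threshold of 0.05. The fit was run on simulated data with normal noise and log2 changes larger than that of any member. That run therefore does not show how the test behaves at the sizes reported here. Percentages beside member counts are shares of all genes tested under the same rule, and "no overlap" means that each library of a group lay on the same side of each library of the other. Members and gene lists were chosen with earlier results of these data known. Values in every library are given for members past the threshold, for Psmb5 to Psmb7, Psme1 to Psme4 and Psmc3ip, and in each role for the member with the highest mean and those with the smallest p against WT pristane and PBS. Psmc1, Psma6 and the genes outside the member list were added after their values were seen, except Psmb8 to Psmb10. Older symbols were matched (Shfm1 for Sem1, AI314180 for Ecm29). Alternatives were other pseudocounts (0.1, 5), other filters (none, a mean of at least 5 FPKM), libraries rescaled to a sum of 1000000, quantile normalization, no trend, each pristane library left out, and the replicate number as a block. Promoter windows came from RefSeq; transcript overlaps and identity came from GENCODE vM21 (Python 3.11.15, Biopython 1.88).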

Additional observations from a re-analysis of the deposited data

How the results depend on the processing

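Between WT pristane and PBS, 3 members rose. That count was 1 with a pseudocount of 0.1, 1 with libraries rescaled to the same sum, 1 without the mean-variance trend, 0 under quantile normalization and 9 among genes with a mean of at least 5 FPKM (41 members and 5894 genes tested, 808 higher and 368 lower of all genes). Under quantile normalization 1 member fell, Psmg4, and the median log2 difference was 0.23. Between the Irf8KO-labelled libraries and PBS 1 member rose. That count was 2 with a mean of at least 5 FPKM and 0 under quantile normalization. The median was 0.078 with libraries rescaled and 0.00502 under quantile normalization. Between the Irf8KO-labelled libraries and WT pristane the median was -0.52 with libraries rescaled, and 0 members passed in any alternative. With a mean of at least 5 FPKM, 105 genes were higher and 137 lower there, against 0 and 3. Leaving out each pristane library in turn gave 0 to 0 members that rose in both comparisons with PBS, and medians of 0.53 to 0.67 for WT pristane and 0.30 to 0.34 for the Irf8KO-labelled libraries. With 1 library left in a group, that library was assumed to vary like the others. Against WT pristane the median ran from -0.39 to -0.18. The ratios of catalytic subunits kept their direction in all of their alternatives; leaving out libraries was added for them after seeing the data. With the replicate block, 0 members rose in both comparisons with PBS. The labels do not say that a number marks a shared animal or day. Deviations of same-numbered pristane libraries had a correlation of 0.04 over all genes. This rests on a single difference per group, so it cannot tell whether same-numbered libraries shared a day or source. The cause of these shifts was not tested. The spread rests on 2 residual degrees of freedom, and a lone fragment on 1 kb came to as much as 0.433 FPKM, which limits the lowest genes, such as Psmc3ip and Psme2b.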
